A study of Mus musculus with 16 samples.

Results

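The genes examined were 10 genes of FGF signalling, the ligands Fgf2, Fgf7, Fgf10 and Fgf18, the receptors Fgfr1, Fgfr2 and Fgfr3, and the genes Etv4, Etv5 and Spry2, which lie downstream of the receptors. They were chosen by name and found through their Ensembl identifiers, as 10 of 29629 Ensembl genes in a single-cell table of induced tendon cells and as 10 of 47729 in a bulk table of mouse Achilles tendon. FGF ligands bind receptor tyrosine kinases together with heparan sulphate, and the receptors signal through RAS and the MEK and ERK kinases, among other routes. Etv4 and Etv5 encode ETS transcription factors that are induced by this signal, while Spry2 encodes an inhibitor of the Sprouty family that is itself induced and holds the signal back. In the embryo, FGFs from the early muscle of the somite induce the tendon progenitors marked by scleraxis (Scx), a transcription factor of tendon and ligament, and Etv4 and Etv5 take part in that response. The paper describes earlier work on FGF in tendon development as contradictory, with positive as well as negative actions. Its own screen of growth factors also included an FGF, and TGF-β2 gave the strongest expression of a Scx reporter and of tendon marker genes.

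The cells came from 1 induced pluripotent stem cell (iPSC) clone that carried the ScxGFP transgene, a green fluorescent reporter driven by Scx regulatory sequence, so that every time point shares 1 genetic background. The iPSCs were kept on feeder cells in 2i LIF medium, which contains a GSK3 inhibitor, an inhibitor of MEK and the cytokine LIF, and were then turned into mesodermal cells with CHIR99021 and cyclopamine followed by a recovery period. These mesodermal cells, without TGF-β2, were the T0 group, and the T3, T6 and T9 groups had received recombinant human TGF-β2 at 10 ng/ml for 3, 6 and 9 days. To free the cells, T0 cultures were digested with trypsin alone, and the later cultures with collagenase and then trypsin. Live single cells of each group had been sorted without selection for GFP into 3 plates of 384 wells for CEL-Seq2, a method that counts unique molecular identifiers (UMIs) from the 3′ end of transcripts. The bulk samples were Achilles tendons of 2-week-old Scx_Wt and Scx_homoKO littermates, 2 of each, in which Scx was intact or disrupted on both alleles. How the Scx_homoKO allele was made, and whether a sample pooled animals, is not given in the sources used here.

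Of 4608 wells, 4594 held at least 200 genes and were kept, between 1147 and 1151 per time point. UMIs were summed over the kept wells of a plate, and the 12 sums ran from 1921125 to 4657093 UMIs. The median kept well held 10175 UMIs at T0, 5703 at T3, then 8794 at T6 and 7900 at T9. Levels are given as CPM, the UMIs or reads of a gene per 1000000 of its library, and the 4 bulk libraries held 11188270 to 12398560 counts. The plates are the replicates, but nothing in the labels says that they came from separate cultures, so the p-values measure the spread between plates, which may be technical. The summed level of 10 tendon markers averaged 805, 8568, 21016 and 27553 CPM from T0 to T9, and wells with a Scx UMI made up 4.88%, 81.1%, 79.1% and 39.0% of wells. Wells with UMIs of both Tdgf1 and Utf1, which mark pluripotent cells, or of both Epcam and Cdh1, which mark epithelium, numbered 174 at T0, 16 at T3, then 12 at T6 and 20 at T9. The 8 pluripotent markers summed to 371 to 780 CPM in the T0 plates and to 0.332 to 296 CPM in the later plates, and the 7 epithelial markers to 398 to 511 CPM and 19.3 to 130 CPM. Here the plates were split into 2 sides by the share of reads on no annotated feature, using the read counts in the study's sequencing table. All 3 T0 plates, 1 T3 plate, 2 T6 plates and 1 T9 plate were on the side with more such reads. The split varies within T3, T6 and T9 but not within T0. It was also fitted as a covariate, and its values are given beside the genes that moved with it.

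All 10 genes are protein-coding, and their positions are those of GRCm38 in the GENCODE release M21. Of the ligands, Fgf2 lies on chromosome 3 from 37348346 to 37410108 on the plus strand and shares 895 exonic bases with other genes, among them Nudt6 and Fgf2os on the opposite strand. Fgf18 lies on chromosome 11 from 33117430 to 33147400 on the minus strand and overlaps no other gene, Fgf10 lies on chromosome 13 from 118669791 to 118792115 on the plus strand, and Fgf7 lies on chromosome 2 from 126034658 to 126091185 on the plus strand. Of the receptors, Fgfr1 lies on chromosome 8 from 25513654 to 25575718 on the plus strand, Fgfr2 on chromosome 7 from 130162451 to 133123350 on the minus strand, and Fgfr3 on chromosome 5 from 33721674 to 33737068 on the plus strand. The annotated span of Fgfr2 is far longer than that of the other genes and overlaps 69 genes, among them Htra1, Bub3 and Ctbp2. Etv4 (chromosome 11, 101769742 to 101785371), Etv5 (chromosome 16, 22381309 to 22439719) and Spry2 (chromosome 14, 105891947 to 105896819) all lie on the minus strand and overlap no other gene. Whether reads were counted by strand is not given in the sources used here, so that reads of Fgf2 and of its antisense partners cannot be told apart, and the same holds for 123 exonic bases of Fgf10, 164 of Fgfr1, 314 of Fgfr2 and 998 of Fgfr3.

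The first question was how the genes moved from T0 over the days with TGF-β2. No plate held cells cultured for the same days without TGF-β2. The effect of TGF-β2 and that of time in culture therefore cannot be told apart in these comparisons. Between T0 and T3 the ligands Fgf2 and Fgf18 rose from a handful of UMIs, Fgfr1 rose slightly, and Fgfr2, Etv4 and Etv5 fell. By T9 Fgf10 and Spry2 were also above T0, while Fgfr1 was no longer distinguishable from it. In the plates 8 of the 10 genes had enough UMIs for a test, and Fgf7 and Fgfr3 did not.

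Fgf2, a ligand without a signal peptide that reaches many receptor forms, was nearly silent at T0, at 0.859, 0 and 0.538 CPM in the 3 plates. It stood at 10.9, 9.58 and 6.27 CPM at T3, at 21.0, 18.1 and 23.3 CPM at T6 and at 23.4, 22.2 and 23.2 CPM at T9. The plates of T0, T3 and T6 did not overlap, whereas those of T6 and T9 did. The UMIs behind these levels numbered 6 at T0, 65 at T3, then 237 at T6 and 225 at T9, in 5, 42, 176 and 157 wells. In one edgeR quasi-likelihood fit of the 12 plates, with p-values adjusted over 13372 genes, Fgf2 rose by 4.34 on the log2 scale from T0 to T3 (SE 0.50, adjusted p = 2.18e-05) and stood 5.99 above T0 at T9 (SE 0.46, adjusted p = 2.15e-07). Because 1 T0 plate had no Fgf2 UMI, the size of both fold changes is poorly fixed, between 3.80 and 6.54 for T3 and between 5.44 and 8.02 for T9 over 17 other settings, in each of which the call held. The further step from T3 to T6 was 1.26 (SE 0.33, adjusted p = 0.0481), a call that was made in 6 of 17 other settings.

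Fgf18, a ligand of the FGF8 subfamily with known roles in bone, cartilage and lung, was also nearly silent at T0, at 1.93, 0 and 0.807 CPM. It reached 31.8, 68.9 and 50.2 CPM at T3, 71.7, 19.7 and 43.8 CPM at T6 and 23.1, 20.2 and 52.7 CPM at T9. All 9 plates with TGF-β2 lay above all 3 T0 plates, and the plates of T3, T6 and T9 overlapped each other. The rise was 5.89 from T0 to T3 (SE 0.58, adjusted p = 4.62e-06 by edgeR) and 5.46 from T0 to T9 (SE 0.58, adjusted p = 5.08e-06), and both calls held in all 17 other settings. As 1 T0 plate had no Fgf18 UMI, the sizes are poorly fixed. They were 7.09 and 6.65 without T0 plate 1 and 5.33 and 4.89 without T0 plate 2, the ends of their ranges. Wells with a Fgf18 UMI numbered 11 at T0, 213 at T3, then 267 at T6 and 192 at T9, and no well held more than 13 of the UMIs. Within each time point after T0, the plates with more reads on no feature had the higher levels, 68.9 CPM at T3, 71.7 and 43.8 CPM at T6 and 52.7 CPM at T9. The part of this difference between libraries in the level of Fgf18 was not tested, but with the split as a covariate the rise from T0 to T3 was 6.37 and that from T0 to T9 was 5.90.

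Fgf10, which is made by mesenchyme and acts mainly on the epithelial form of Fgfr2, was detected at every time point but at a low level. It stood at 4.08, 2.78 and 3.50 CPM at T0, at 1.56, 4.79 and 2.79 CPM at T3, at 4.61, 9.86 and 11.9 CPM at T6 and at 7.06, 8.67 and 7.30 CPM at T9. The T9 plates all lay above the T0 plates, whereas T0 overlapped T3 and T6 overlapped T9. Fgf10 was 1.65 higher at T9 than at T0 (SE 0.44, adjusted p = 0.00707 by edgeR). The step from T3 to T6 was 1.56 (SE 0.46, adjusted p = 0.0781) and that from T0 to T3 was 0.05 (SE 0.48, adjusted p = 0.948). A single T6 well held 30 of the 99 Fgf10 UMIs of T6, in a well without Scx, and its weight is given with the Scx classes.

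Fgf7, a mesenchymal ligand that like Fgf10 acts on the epithelial form of Fgfr2, gave only 19 UMIs at T0, 3 at T3, then 10 at T6 and 7 at T9 and was not tested. Of its 19 UMIs at T0, 11 came from 1 well, so that the level of Fgf7 in these cells cannot be ranked over time.

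**Figure D1:**
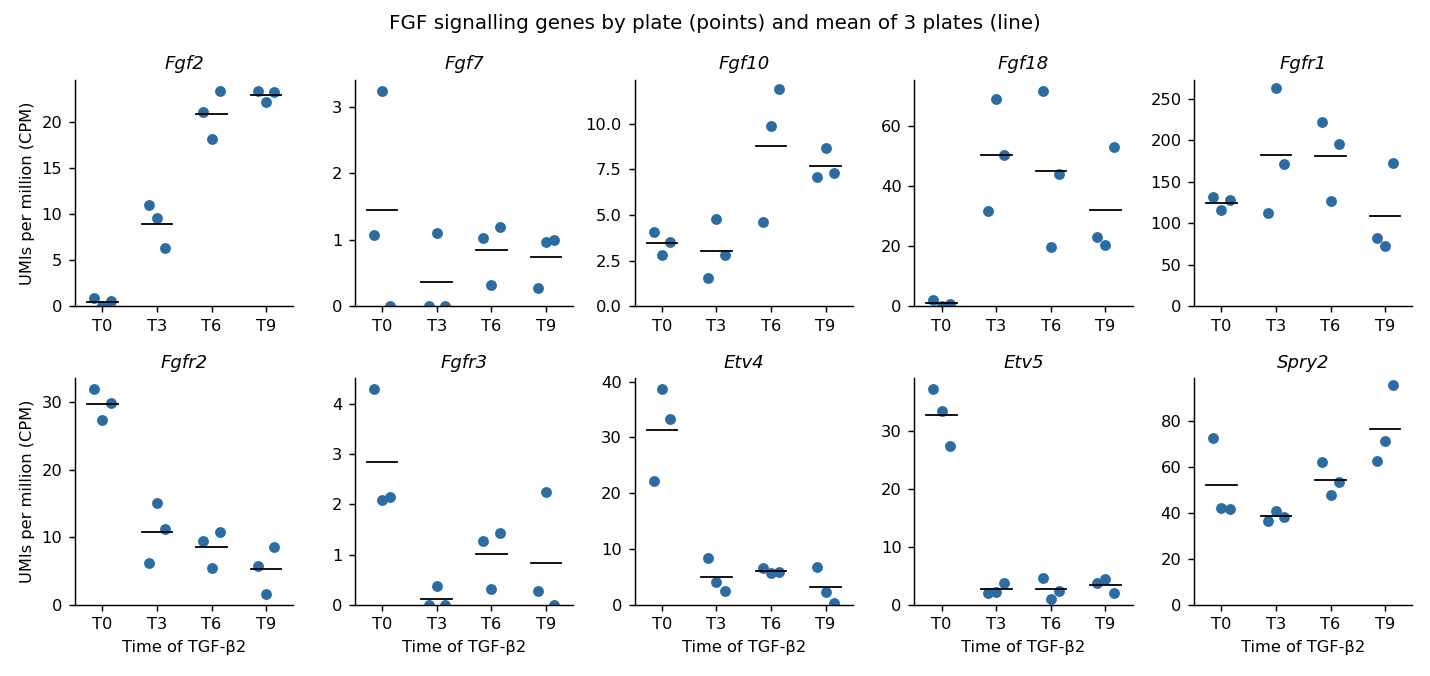
Level of each of the 10 genes in CPM (vertical axis, a separate linear scale for each gene) at T0, T3, T6 and T9. Each point is 1 plate and each line is the mean of 3 plates; Fgf2 and Fgf18 lie below 2 CPM in every T0 plate and above 6 CPM in every later plate, while Etv4 and Etv5 lie above 22 CPM at T0 and below 9 CPM afterwards.

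Fgfr1, the receptor commonly found on mesenchymal cells, was detected in most wells or close to it, 64.8% of wells at T0, 51.6% at T3, then 67.8% at T6 and 47.9% at T9. Its level was 131, 115 and 128 CPM at T0, 112, 263 and 171 CPM at T3, 222, 127 and 195 CPM at T6, and 81.7, 72.9 and 173 CPM at T9. The 3 T0 plates lay close together and overlapped the plates of every later time point, which were spread widely. With wells thinned to 3000 UMIs each, 30.4%, 36.9%, 40.8% and 26.0% of wells had a Fgfr1 UMI. The fitted rise from T0 to T3 was 0.73 (SE 0.23, adjusted p = 0.0264 by edgeR) and was called in 11 of 17 other settings. The call was lost without T3 plate 2, at 0.54 (adjusted p = 0.101), and in 4 of the other 5 fits that left out a plate. It was also lost on total UMIs per plate with no scaling factor, at 0.55 (adjusted p = 0.268), a setting added after seeing the data. At T9 Fgfr1 differed from T0 by 0.23 (SE 0.23, adjusted p = 0.435).

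The spread of Fgfr1 followed the split of the libraries. On the side with more reads on no feature, Fgfr1 stood at 115 to 131 CPM in the T0 plates, at 263 CPM in the T3 plate, at 222 and 195 CPM in the T6 plates and at 173 CPM in the T9 plate, all later plates being above T0. On the other side it stood at 112 and 171 CPM at T3, at 127 CPM at T6 and at 81.7 and 72.9 CPM at T9, with no T0 plate to compare. With the split as a covariate, Fgfr1 was 1.05 above T0 at T3 (adjusted p = 4.74e-05 by edgeR) and 0.54 above T0 at T9 (adjusted p = 0.00921). On total UMIs it was 0.20 below T0 at T9 (value -0.20, adjusted p = 0.673), so the direction at T9 depends on the scaling.

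Fgfr2, the receptor whose epithelial form binds Fgf7 and Fgf10, fell after T0. It stood at 32.0, 27.3 and 29.9 CPM at T0, at 6.25, 15.1 and 11.1 CPM at T3, at 9.47, 5.41 and 10.7 CPM at T6 and at 5.70, 1.61 and 8.62 CPM at T9. Every later plate lay below every T0 plate, and the later time points overlapped one another. The change was -1.23 from T0 to T3 (SE 0.34, adjusted p = 0.0136 by edgeR) and -2.02 from T0 to T9 (SE 0.36, adjusted p = 0.000431), and both calls held in all 17 other settings. A 3′ count does not separate the epithelial from the mesenchymal form of the receptor.

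Fgfr3, a receptor known for holding back growth of cartilage, gave 37 UMIs at T0, 1 at T3, then 12 at T6 and 8 at T9 and was not tested. Its UMIs by plate were 20, 9 and 8 at T0, and no later plate held more than 7.

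Etv4 and Etv5, the ETS factors used as readouts of FGF signalling, showed the steepest falls at T3 among the 8 genes tested. Etv4 stood at 22.1, 38.7 and 33.4 CPM at T0, at 8.33, 4.05 and 2.44 CPM at T3, at 6.65, 5.73 and 5.95 CPM at T6 and at 6.79, 2.25 and 0.332 CPM at T9. Etv5 stood at 37.4, 33.6 and 27.4 CPM at T0, at 2.08, 2.21 and 3.83 CPM at T3, at 4.61, 0.955 and 2.38 CPM at T6 and at 3.80, 4.50 and 1.99 CPM at T9. For both genes every plate after T0 lay below every T0 plate, and T3, T6 and T9 overlapped. Etv4 changed by -2.50 from T0 to T3 (SE 0.61, adjusted p = 0.00680 by edgeR) and by -2.70 from T0 to T9 (SE 0.61, adjusted p = 0.00264). Etv5 changed by -3.32 from T0 to T3 (SE 0.44, adjusted p = 7.34e-05) and by -2.71 from T0 to T9 (SE 0.41, adjusted p = 0.000120). All 4 calls held in all 17 other settings, but the sizes at T9 moved, between -4.14 and -2.10 for Etv4 and between -4.28 (wells thinned to 3000 UMIs) and -2.33 (without T9 plate 3) for Etv5. For Etv4 both ends came from leaving out a plate, -4.14 without T9 plate 1 and -2.10 without T9 plate 3.

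The share of wells with an Etv5 UMI went from 22.3% at T0 to 1.39% at T3, then 1.74% at T6 and 2.01% at T9, and with wells thinned to 3000 UMIs from 7.27% to 0.68%, 0.38% and 0.27%. At T0, UMIs of both Etv4 and Etv5 were found in 92 of 1147 wells, where the product of their separate shares gives 55.6 wells. This is a description, since deeper wells hold more UMIs of every gene, and after thinning the values were 11 and 6.19 of 1071 wells.

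Part of the T0 level came from wells with markers of other cell types. In those wells Etv5 stood at 63.7, 59.2 and 35.0 CPM in the 3 T0 plates, against 27.0, 26.1 and 26.2 CPM in the remaining T0 wells. Spry2 was likewise higher in them, at 114, 54.1 and 68.1 CPM against 56.3, 38.6 and 37.5 CPM, whereas Fgfr1 was lower, at 104, 69.4 and 54.5 CPM against 142, 129 and 140 CPM. Etv4 was also higher in the wells with such markers and Fgfr2 lower, and Fgfr3 was lower from few UMIs. The direction was the same in each of the 3 plates for all of these genes. No test was made because the wells were picked by their expression. Without such wells the fall of Etv5 from T0 to T3 was -4.13 (adjusted p = 4.06e-06 by edgeR), and that of Etv4 was -2.74 (adjusted p = 0.00279).

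Spry2, the inhibitor, did not follow Etv4 and Etv5. It stood at 72.6, 42.1 and 41.7 CPM at T0, at 36.4, 40.9 and 38.3 CPM at T3, at 61.9, 47.7 and 53.5 CPM at T6 and at 62.5, 71.3 and 95.5 CPM at T9. The plates of T3, T6 and T9 did not overlap one another, T3 being lowest and T9 highest, but the highest T0 plate lay inside the T9 range, and 33 of the 675 UMIs at T0 came from 1 well. Spry2 was 1.03 higher at T9 than at T0 (SE 0.20, adjusted p = 0.000754 by edgeR). The smaller steps were -0.20 from T0 to T3 (adjusted p = 0.486), 0.51 from T3 to T6 (adjusted p = 0.189) and 0.72 from T6 to T9 (SE 0.20, adjusted p = 0.0897). On total UMIs with no scaling factor, the difference between T9 and T0 was 0.55 (adjusted p = 0.0807), and that of Fgf10 was 1.14 (adjusted p = 0.050005), just over the threshold, so that both calls were lost. In that setting the median over all genes was -0.49 in place of -0.02, and 28.2% in place of 52.1% of the called genes were higher at T9, so that relative to the median gene both genes stayed higher.

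Of the 8 genes tested between T0 and T3, 6 were called, 3 in each direction, where 33.2% of all genes tested were called, 17% higher and 16.2% lower. Between T0 and T9 it was 7 of 8, 4 higher and 3 lower, where 45.2% of all genes were called, 23.6% higher and 21.6% lower, so a large part of the genome moved as well. The median log2 fold change of the 8 genes was -0.07 at T3 and 0.63 at T9, beside 0.01 and -0.02 over all genes tested. Fgf2 and Fgf18 rose and Fgfr2, Etv4 and Etv5 fell in both comparisons, so the median does not describe the single genes. These comparisons share the T0 plates. The plates of T0 and T3 did not overlap for 6 of the 8 genes, where this held for 51.6% of all genes, and those of T0 and T9 for 6 of 8, where it held for 60.8%. On total UMIs, where the median over all genes was -0.21 at T3, the share of calls that were higher at T3 went from 51.3% to 39.1%, and 5 of the 8 genes were called at each of T3 and T9.

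Between adjacent later times fewer genes moved. From T3 to T6 only Fgf2 was called of the 8, where 4.24% of all genes were called, and 2 of 8 genes, Fgf2 and Spry2, had plates that did not overlap, where this held for 19.9% of all genes. From T6 to T9 edgeR called 0 of the 8 genes, where 1.62% of all genes were called, 2 genes had an unadjusted p below 0.05, and DESeq2 called 1, Spry2, at 0.74 (adjusted p = 0.0179). The plates of T6 and T9 did not overlap for 1 of the 8, again Spry2, where 15.7% of all genes did not.

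**Figure D2:**
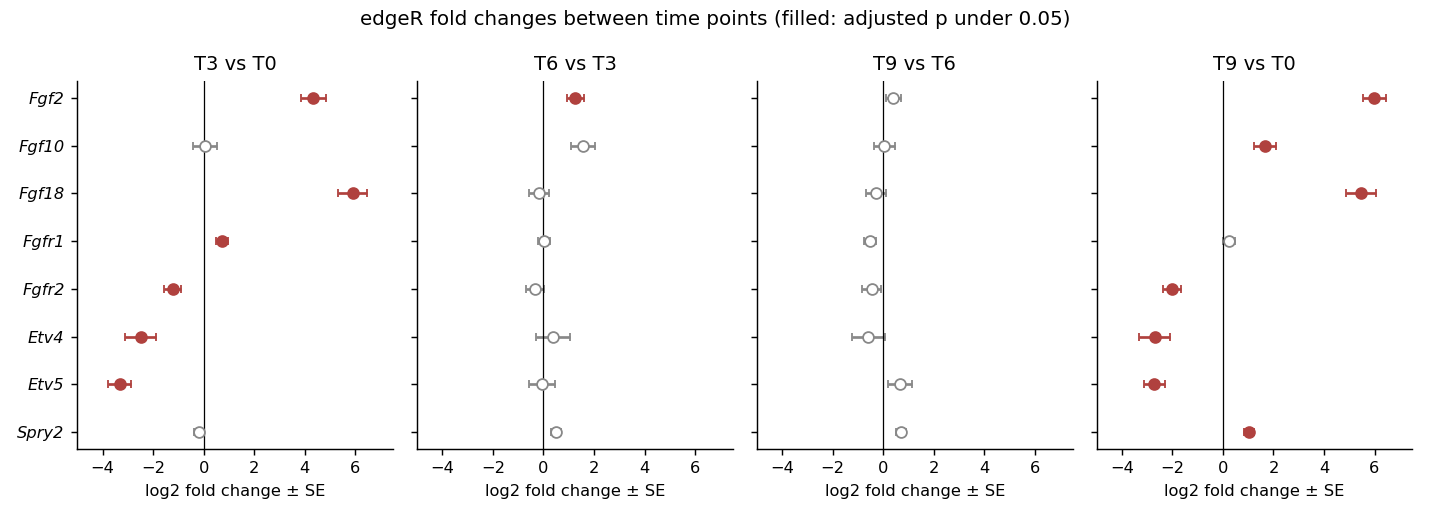
Log2 fold change (horizontal axis, bars are 1 SE) of the 8 genes tested in the plates, in 4 comparisons of time points from one edgeR fit; filled symbols mark an adjusted p below 0.05. Fgf2 and Fgf18 lie far to the right and Etv4, Etv5 and Fgfr2 to the left of 0 in both comparisons with T0, while between T6 and T9 no symbol is filled.

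As a description, the genes whose log2(CPM + 1) followed each member most closely over the 12 plates were found among genes outside the lists with a mean of at least 20 CPM. For Fgf2 they were Cilp (Pearson r = 0.991) and Bgn (0.988), for Fgf18 Gadd45b (0.988) and Htra1 (0.981), and for Fgf10 Mxra8 (0.867) and Lxn (0.862). For Fgfr1 they were Nhsl2 (0.968) and Lpin2 (0.965), for Fgfr2 Nol4l (0.983) and Limch1 (0.982), for Etv4 Eef1akmt1 (0.928) and Clns1a (0.923), for Etv5 C1qbp (0.973) and Ubxn1 (0.969), and for Spry2 Msn (0.944) and Deptor (0.889). Among the members themselves, r was 0.879 between Fgf2 and Fgf18, 0.796 between Etv4 and Etv5 and -0.895 between Fgf2 and Etv5. Each of these values rests on 12 plates in 4 time points, which share libraries and time.

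The next question was whether the genes differed between cells with and without Scx. Within each plate of T3, T6 and T9, UMIs were summed over wells with at least 1 Scx UMI (Scx+) and over wells with none (Scx-), and both sums of a plate were compared with the plate as a block, over 11859 genes. A well without a Scx UMI may still express Scx, and the median Scx+ well was deeper than the median Scx- well in all 9 plates, for example 10081 against 7161 UMIs in T6 plate 1. At T3, 4 of 6 pluripotent markers tested were lower in Scx+ wells, and their summed level over 8 genes was 65.7 to 86.8 CPM in Scx+ wells and 213 to 632 CPM in Scx- wells. At T6, 3 of 8 markers of parietal endoderm were lower in Scx+ wells, and the list summed to 2839 to 5844 CPM in Scx+ wells and 2812 to 7846 CPM in Scx- wells. This sum does not measure such cells. It averaged 985 CPM in the T0 plates and 7817 CPM in the T9 plates, and Sparc of the list averaged 25938 CPM in Scx_Wt tendon. The other genes of the list are Lama1, Col4a1, Col4a2, Srgn, Tfpi, Gata6 and Sox17. The paper took Srgn, Tfpi and basement membrane genes as signs of a cluster that appeared to be endothelial. The part of other cell types in the differences of the FGF genes was not tested. Among the FGF genes, Fgf18 was higher in Scx+ wells at T3 and Fgf10 was lower in them at T6.

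At T3 Fgf18 stood at 9.68, 30.5 and 9.58 CPM in the Scx- wells of the 3 plates and at 37.8, 76.0 and 57.1 CPM in the Scx+ wells. At T6 the values were 16.7, 10.8 and 30.4 CPM against 80.4, 22.0 and 46.6 CPM, and at T9 they were 19.3, 16.5 and 36.0 CPM against 26.9, 27.6 and 76.7 CPM. Scx+ wells were higher in 9 of 9 plates, and at T3 the classes did not overlap across plates. The difference was 1.82 at T3 (SE 0.35, adjusted p = 0.0118 by edgeR), 1.26 at T6 (SE 0.30, adjusted p = 0.0565) and 0.81 at T9 (SE 0.26, adjusted p = 0.280). At T3, Fgf18 was the only one of 8 genes called, where 0.801% of all genes were called. With all wells thinned to 3000 UMIs the difference at T3 was 1.55 (adjusted p = 0.00259), and without T3 plate 3 it was 1.57 and no longer called (adjusted p = 0.110). The change of the class difference from T3 to T9 was -1.02 (SE 0.45, adjusted p = 0.637), so a difference between the time points was not shown.

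Fgfr1 was higher in Scx+ wells in all 6 plates of T3 and T6, without passing the test. At T3 it stood at 84.7, 157 and 139 CPM in Scx- wells against 119, 283 and 177 CPM in Scx+ wells, a difference of 0.60 (SE 0.16, adjusted p = 0.0745 by edgeR). At T6 the values were 166, 105 and 128 CPM against 231, 132 and 209 CPM, a difference of 0.52 (SE 0.14, adjusted p = 0.118). With wells thinned to 3000 UMIs, Fgfr1 passed the test at T3 (0.62, adjusted p = 0.0345) but not at T6 (0.24, adjusted p = 0.930).

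Fgf10 differed in the opposite direction at T6. It stood at 14.9, 18.5 and 55.2 CPM in the Scx- wells of the 3 T6 plates and at 2.97, 7.62 and 2.87 CPM in the Scx+ wells. The classes did not overlap, and Fgf10 was lower in Scx+ wells by -2.66 on the log2 scale (SE 0.55, adjusted p = 0.0217 by edgeR). It was the only one of the 8 genes called at T6, where 0.523% of all genes were called. This call rests on 1 well of T6 plate 3, which held 30 of the 40 Fgf10 UMIs of the Scx- wells of that plate, 0 Scx UMIs, 19871 UMIs in all and 5020 genes. Without that well, a setting added after seeing the data, the difference was -1.89 (adjusted p = 0.123) and 0 of the 8 genes were called. At T9 Fgf10 stood at 6.98, 5.33 and 5.63 CPM in Scx- wells and at 7.15, 15.2 and 9.69 CPM in Scx+ wells (0.78, SE 0.54, adjusted p = 0.957).

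At T9 edgeR called 0 of the 8 genes between the classes, where 0.413% of all genes were called, 2 had an unadjusted p below 0.05, and DESeq2 called 0. The change of the class difference from T3 to T9 was called for 0 of 8 genes, where 0.0928% of all genes were called, 2 had an unadjusted p below 0.05, and DESeq2 called 0. Wells of T0 were also split by Sox9, a transcription factor of the shared progenitors of tendon and cartilage. Of the 5 genes tested between Sox9+ and Sox9- wells, Fgfr1, Fgfr2, Etv4, Etv5 and Spry2, edgeR called 0, where 0.565% of all genes were called, 1 had an unadjusted p below 0.05, and DESeq2 called 0.

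**Figure D3:**
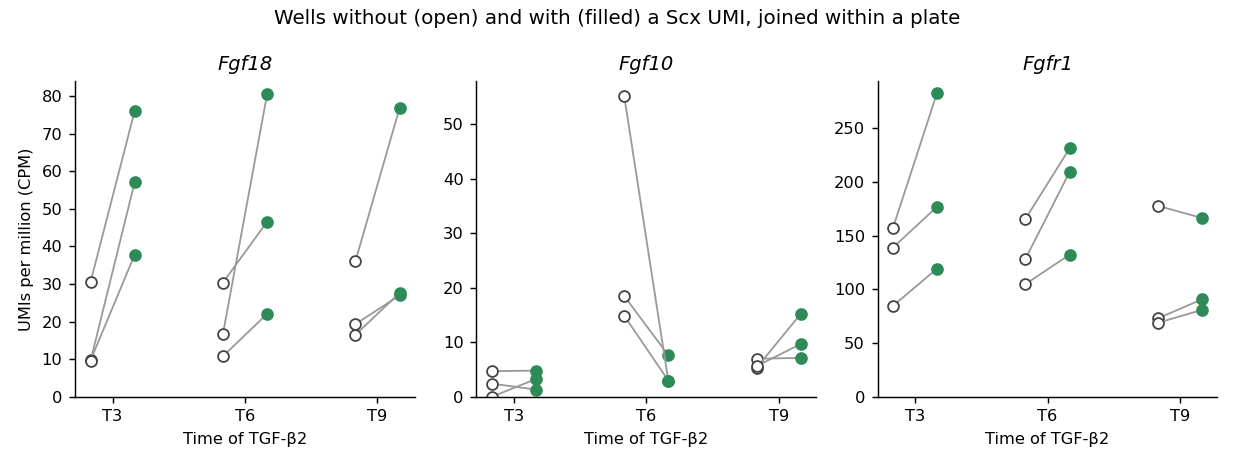
Level of Fgf18, Fgf10 and Fgfr1 in CPM (vertical axis, linear) in Scx- wells (open) and Scx+ wells (filled) at T3, T6 and T9, with a line joining both classes of a plate. The lines of Fgf18 rise in all 9 plates, and the Fgf10 point at 55.2 CPM is the plate whose Scx- level comes mostly from 1 well.

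The last comparison asked how the genes stood in tendon without Scx. In the Achilles tendon Scx itself fell from 103 and 81.3 CPM in the Scx_Wt samples to 23.1 and 25.1 CPM in the Scx_homoKO samples (-1.88, SE 0.17, adjusted p = 0.000429 by edgeR). The 287 and 296 reads of Scx that remained in Scx_homoKO cannot be placed inside or outside the disrupted part. Among the 10 genes, all of which were tested, Fgfr2 was lower and Fgf7 higher in Scx_homoKO. These 2 of 10 stand beside 3.84% called of all 14602 genes tested.

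Fgfr2 stood at 33.4 and 19.3 CPM in Scx_Wt and at 9.52 and 7.47 CPM in Scx_homoKO, from 374, 237, 118 and 88 reads. The groups did not overlap, and the difference was -1.58 (SE 0.28, adjusted p = 0.0160 by edgeR). It was called in 8 of 9 other settings and lost without Scx_Wt replicate 1, at -1.20 (adjusted p = 0.108). Fgf7 stood at 7.33 and 6.53 CPM in Scx_Wt and at 16.9 and 14.3 CPM in Scx_homoKO, from 82, 80, 209 and 168 reads. The groups did not overlap, and the difference was 1.21 (SE 0.27, adjusted p = 0.0405). It was called in 5 of 9 other settings and lost in 3 of the 4 fits that left out a sample, those without Scx_Wt replicate 1 (1.24, adjusted p = 0.127), without Scx_Wt replicate 2 (1.18, adjusted p = 0.120) and without Scx_homoKO replicate 1 (1.12, adjusted p = 0.112), as well as on library size alone (1.17, adjusted p = 0.0675).

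The other ligands did not pass the test. Fgf10 stood at 12.2 and 4.00 CPM in Scx_Wt and at 0.645 and 2.38 CPM in Scx_homoKO, from 137, 49, 8 and 28 reads. The replicates of each group differed from each other by more than 3-fold, and the difference between the groups was -2.34 (SE 0.70, adjusted p = 0.112 by edgeR), and it was called in 4 of 9 other settings. These were DESeq2 (-2.34, adjusted p = 0.0199), no filter on low counts (adjusted p = 0.000147), and the fits without Scx_Wt replicate 2 (-2.91) and without Scx_homoKO replicate 2 (-3.59). Without Scx_Wt replicate 1 the difference was -1.39, and without Scx_homoKO replicate 1 it was -1.66. Fgf2 stood at 36.0 and 28.8 CPM against 22.4 and 23.3 CPM (-0.45, SE 0.19, adjusted p = 0.244). Fgf18 stood at 7.87 and 4.65 CPM against 8.87 and 10.6 CPM (0.70, SE 0.36, adjusted p = 0.362).

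Nor did the other receptors or the downstream genes. Fgfr1 stood at 252 and 213 CPM in Scx_Wt and at 186 and 226 CPM in Scx_homoKO (-0.12, SE 0.17, adjusted p = 0.774), and Fgfr3 at 7.87 and 7.67 CPM against 7.42 and 9.59 CPM (0.18, SE 0.33, adjusted p = 0.837). For both the groups overlapped. Spry2 stood at 35.6 and 30.8 CPM against 20.6 and 17.3 CPM (-0.76, SE 0.19, adjusted p = 0.0593 by edgeR). Etv4 stood at 10.7 and 10.0 CPM against 8.79 and 3.31 CPM (-0.74, SE 0.43, adjusted p = 0.431) and Etv5 at 15.9 and 17.1 CPM against 18.1 and 19.1 CPM (0.21, SE 0.22, adjusted p = 0.681). Spry2, Etv4 and Etv5 had no overlap between the groups, as was the case for 8 of the 10 genes, where 48.3% of all genes did not overlap.

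Counted per length, as TPM (reads divided by exon length and then scaled to 1000000 per sample), Fgfr1 was the most abundant of the 10 in Scx_Wt tendon, at 78.1 TPM ± 12.6 (SD, n = 2), followed by Spry2 at 52.7 TPM ± 7.52. Fgf18 stood at 17.6 TPM ± 7.07, Fgf2 at 15.9 TPM ± 3.15, Etv5 at 13.3 TPM ± 0.14, Etv4 at 11.1 TPM ± 0.98, Fgfr2 at 8.51 TPM ± 3.55, Fgf7 at 7.07 TPM ± 0.87, Fgf10 at 5.93 TPM ± 4.44 and Fgfr3 at 3.59 TPM ± 0.22. With 2 samples, Fgf18, Fgf2 and Etv5 lay within their spread of each other, as did Fgfr2, Fgf7 and Fgf10. In Scx_homoKO tendon Fgf7 stood at 14.7 TPM ± 1.12 and Fgfr2 at 2.52 TPM ± 0.33, and both Scx_homoKO samples had more Fgf7 than Fgfr2.

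**Figure D4:**
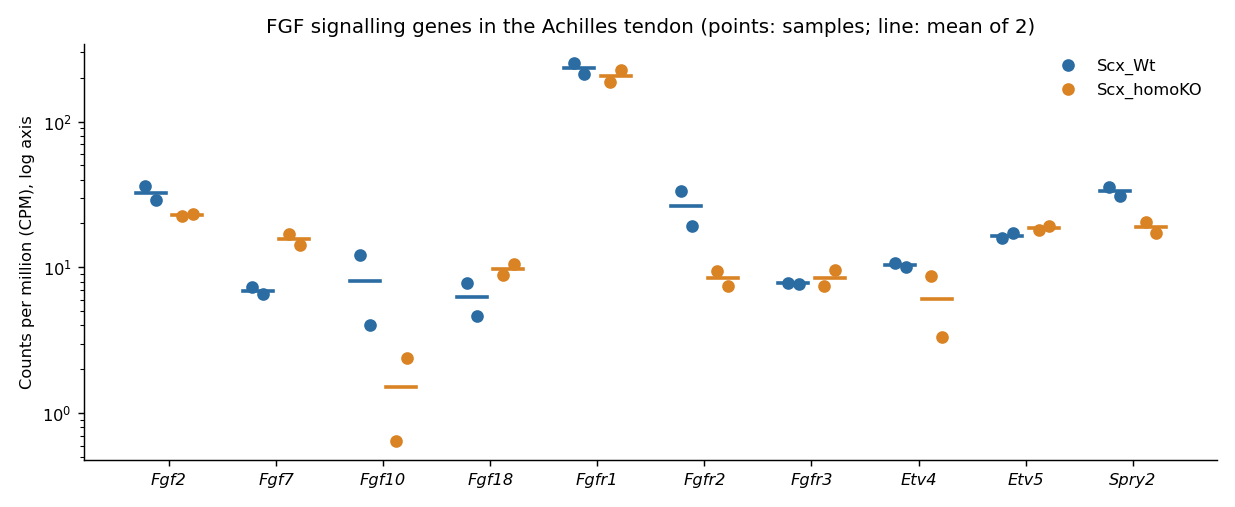
Level of the 10 genes in CPM (vertical axis, log scale) in 2 Scx_Wt and 2 Scx_homoKO Achilles tendons; points are samples and lines are means of 2. Fgfr2 is lower and Fgf7 higher in both Scx_homoKO samples, and the Fgf10 samples of each group lie far apart.

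The tissue differed in more than these genes, and in a bulk sample fewer cells of a type and less RNA per cell cannot be told apart. The summed level of the 10 tendon markers, Scx among them, was 168710 and 155378 CPM in Scx_Wt and 75195 and 86516 CPM in Scx_homoKO. Most of this sum was Col1a1 (mean 81566 against 40572 CPM) and Col1a2 (68322 against 34149 CPM). Of the 10 markers 5 were called lower by edgeR, and Dcn alone did not average lower (3198 against 3258 CPM). The 8 skeletal muscle markers stood at 35068 and 60734 CPM against 77033 and 80745 CPM, and the 7 cartilage markers at 2362 and 2557 CPM against 130 and 108 CPM. Of the muscle markers 0 of 8 were called by edgeR, and Myh2 alone averaged lower in Scx_homoKO (3073 against 2315 CPM). Of the 6 cartilage markers tested, 4 were called lower. The 6 adipocyte markers stood at 3224 and 1261 CPM against 813 and 384 CPM, and the 6 keratinocyte markers at 15.9 and 12.6 CPM against 97.8 and 86.1 CPM. The keratinocyte sum rose mostly through Dsp (mean 0.53 against 48.0 CPM) and Trp63 (6.72 against 34.3 CPM). Its keratins stayed low, with Krt5 at 0 against 0.49 CPM, Krt14 at 0 against 0.85 CPM, Krt10 at 7.03 against 8.30 CPM and Krt1 at 0 in both groups. The 7 epithelial markers stood at 3.04 and 1.71 CPM in Scx_Wt against 20.5 and 13.1 CPM in Scx_homoKO. Of the 3 epithelial markers tested, 2 were called higher by edgeR. In this list the keratin Krt8 averaged 0.16 against 6.22 CPM and Krt18 0.57 against 6.53 CPM. The 6 Schwann cell markers stood at 1178 and 1101 CPM against 7429 and 305 CPM, so 1 Scx_homoKO sample stood apart in them. Endothelial markers were somewhat lower in Scx_homoKO (905 and 881 CPM against 662 and 553 CPM), and blood and immune markers overlapped (436 and 245 CPM against 325 and 311 CPM). The part of these tissues in the levels of Fgfr2, Fgf7 and Fgf10 was not tested.

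Beyond the 10 genes, 96 other genes of the pathway were listed by role, and 78 of them were tested in the plates. Between T0 and T3, 20 rose and 20 fell, where 17% and 16.2% of all genes did. Between T0 and T9, 30 rose and 16 fell, where 23.6% and 21.6% of all genes did, with a median of 0.13 beside -0.02 over all genes at T9. From T3 to T6, 11 rose and 0 fell, where 4.24% of all genes were called in either direction. From T6 to T9, where 1.62% were called, the glypican Gpc4 rose (0.76, SE 0.17, adjusted p = 0.0421) and Dusp6 fell (-0.76, SE 0.18, adjusted p = 0.0495), both named here after their values were seen. The number of genes in every count is that of calls by edgeR at an adjusted p below 0.05.

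Of the other ligands, 4 of 14 were tested and 2 rose by T9. Fgf9, a ligand of the receptors' mesenchymal forms, had 2 UMIs at T0 and 311 at T9 and averaged 0.15 CPM at T0, 18.9 CPM at T3, 22.1 CPM at T6 and 31.9 CPM at T9 (7.78 between T0 and T9, SE 0.48, adjusted p = 2.51e-08 by edgeR). Fgf21, an endocrine ligand that needs β-Klotho (Klb) as a co-receptor, averaged 0.76, 1.35, 18.1 and 25.7 CPM (5.45, SE 0.39, adjusted p = 1.02e-07). Klb itself had 6, 1, 28 and 21 UMIs. Of the FGF homologous factors, intracellular proteins that do not signal through the receptors, 3 of 4 were tested and Fgf11 rose, from 3.54 CPM at T0 to 39.5 CPM at T9 (3.92, SE 0.23, adjusted p = 1.73e-08).

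Of the other receptors and binding proteins, 6 of 9 were tested. The carrier protein Fgfbp1 rose to 10.3 CPM between T0 and T9 (3.25, SE 0.74, adjusted p = 0.00263 by edgeR), and Flrt3, a membrane protein that binds FGF receptors, fell from 168 to 26.1 CPM (-2.23, SE 0.26, adjusted p = 1.12e-05). Of 21 genes of heparan sulphate tested, 10 rose and 4 fell by T9, where 23.6% of all genes rose and 21.6% fell. The sulphatase Sulf1, which trims heparan sulphate outside the cell, rose from 17.3 CPM at T0 to 668 CPM at T9 (5.67, SE 0.34, adjusted p = 1.92e-08), and the syndecan Sdc3 from 0.85 to 4.76 CPM (2.90, SE 0.62, adjusted p = 0.00173). The sulphotransferases Ndst1 and Hs6st2 fell, from 86.7 to 18.9 CPM (-1.88, SE 0.65, adjusted p = 0.0288) and from 31.7 to 9.73 CPM (-1.25, SE 0.27, adjusted p = 0.00169).

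Among 20 adaptors and kinases, 4 rose and 6 fell between T0 and T9, near the 45.2% called of all genes. Among them were the ERK kinase Mapk3 (1.53, SE 0.19, adjusted p = 1.68e-05 by edgeR) and the adaptor Shc1 (1.35, SE 0.16, adjusted p = 1.81e-05), which rose, and the MEK kinase Map2k2 (-1.26, SE 0.19, adjusted p = 0.000112) and the phosphatase Ptpn11 (-1.03, SE 0.34, adjusted p = 0.0244), which fell. Of 9 other feedback inhibitors, 0 rose and 6 fell between T0 and T3, with a median of -1.15, where 16.2% of all genes fell, and 1 rose and 3 fell between T0 and T9, where 45.2% of all genes were called. Dusp6, a phosphatase of ERK, fell from 116 CPM at T0 to 38.2 CPM at T3 and 20.1 CPM at T9 (-2.06, SE 0.18, adjusted p = 7.44e-07), and Il17rd, a membrane inhibitor of FGF receptors, fell from 61.7 to 21.2 CPM (-1.13, SE 0.27, adjusted p = 0.00389). Spry4, like Spry2 a Sprouty inhibitor, rose from 15.0 to 22.3 CPM (0.98, SE 0.28, adjusted p = 0.0116).

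Of 15 other genes of the MAPK and ETS response, 11 rose and 2 fell between T0 and T9, with a median of 1.31, where 23.6% of all genes rose and 21.6% fell. The immediate early genes Ier3 and Egr2 rose the most, from 48.3 to 551 CPM (4.00, SE 0.18, adjusted p = 1.63e-09 by edgeR) and from 5.42 to 56.8 CPM (3.86, SE 0.27, adjusted p = 6.86e-08). The cyclin Ccnd1 fell from 38.6 to 3.98 CPM (-2.83, SE 0.37, adjusted p = 3.19e-05), and Etv1, an ETS factor related to Etv4 and Etv5, fell from 28.6 to 9.99 CPM (-1.10, SE 0.29, adjusted p = 0.00667). The immediate early genes answer many signals besides FGF, and Egr1 of this list is also among the tendon markers. The digestion of the cells also differed between T0 and the later time points, and its part in these rises was not tested.

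In the Achilles tendon 83 of the 96 genes were tested, of which 3 rose and 5 fell in Scx_homoKO, where 3.84% of all genes were called, and the median was -0.17 beside -0.0042 over all genes. Hras rose from 72.8 and 93.2 CPM to 221 and 196 CPM (1.37, SE 0.18, adjusted p = 0.00354 by edgeR), and the sulphatase Sulf2 from 101 and 80.0 CPM to 206 and 223 CPM (1.30, SE 0.16, adjusted p = 0.00224). Fgf16 rose from 1.61 and 1.31 CPM to 5.16 and 8.32 CPM (2.26, SE 0.50, adjusted p = 0.0405). For all 3 genes the groups did not overlap.

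Sdc3 fell from 258 and 232 CPM in Scx_Wt to 78.2 and 76.3 CPM in Scx_homoKO (-1.62, SE 0.15, adjusted p = 0.000429 by edgeR), and with it the glypican Gpc6 (-0.90, SE 0.19, adjusted p = 0.0298) and the epimerase Glce (-0.86, SE 0.18, adjusted p = 0.0333), both of heparan sulphate. The inhibitors Il17rd and Spry4 fell, from 26.4 and 33.1 CPM to 11.9 and 12.1 CPM (-1.27, SE 0.23, adjusted p = 0.0157) and from 35.7 and 25.7 CPM to 15.2 and 13.8 CPM (-1.03, SE 0.21, adjusted p = 0.0302). These 2 inhibitors were the only ones of 9 tested that were called.

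**Figure D5:**
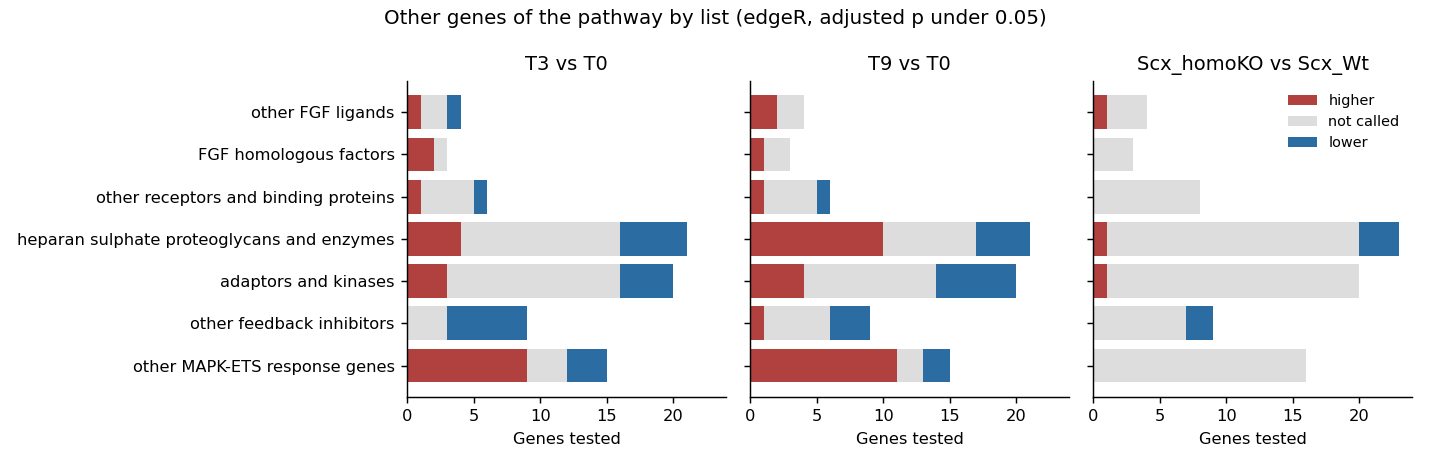
Number of genes tested (horizontal axis) in each of 7 lists of other pathway genes that were higher, not called or lower by edgeR at an adjusted p below 0.05, at T3 and at T9 against T0 and in Scx_homoKO against Scx_Wt. The feedback inhibitors hold 6 falls and 0 rises at T3, the MAPK and ETS response genes hold 11 rises and 2 falls at T9, and most genes of every list are not called in the tendon.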

How the data were processed

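The single-cell table held UMI counts per gene and well, which the authors made from CEL-Seq2 reads aligned to GRCm38 with HISAT2 2.2.1, counted with featureCounts and collapsed with UMI-tools 1.0.1. The bulk table held read counts per gene that the authors deposited after HISAT2 2.0.4 and featureCounts 1.5.0 (tools per the submitters' processing notes and the study's methods). The annotation release and strand setting are not given in the sources used here. Identifiers were matched to symbols with GENCODE M21 (29528 of 29629 in the single-cell table and 47224 of 47729 in the bulk table), and 3 entries that are no Ensembl genes, with 0.0642% of UMIs, were left out.

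Wells with at least 200 genes were summed per plate, or per plate and class of well, and each sum was 1 replicate. All plates use the same 384 well barcodes, and since 1 cell was sorted per well, doublets were not called. Tests were edgeR 4.0.16 quasi-likelihood tests in R 4.3.3 with filterByExpr and TMM scaling, and Benjamini-Hochberg adjustment over all genes tested (threshold 0.05). The 12 plates entered 1 fit, the Scx classes of T3, T6 and T9 entered 1 fit with the plate as a block, and the Sox9 classes of T0 and the bulk samples were fitted alone. The code was tested on simulated data. TPM in the bulk samples was computed from the merged exon lengths of GENCODE M21. Depth limits Fgf7 and Fgfr3 in the plates to counts of UMIs, which did not pass the filter.

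Alternatives were DESeq2 1.42.0, other scaling, no filter, other well filters and thinning to 3000 UMIs. Further ones were the split of plates into more or fewer reads on no feature as a covariate, replicate blocks and leaving out each library. The members and lists were chosen with earlier results of these data known. The 10 members are always named, with 2 rises and 2 falls per other list among the called genes of T9 against T0 and of Scx_homoKO against Scx_Wt, and the 2 genes most correlated with each member. Where labels give a replicate number, same-numbered plates did not deviate together (r from -0.563 to 0.515 over 18 pairs, and from -0.563 to 0.488 over 36 pairs of different numbers), so numbers were not taken as pairs.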

Additional observations from a re-analysis of the deposited data

Results flagged for a closer look

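The difference between Scx+ and Scx- wells of Fgf10 changed from T6 to T9 by 3.44 on the log2 scale (SE 0.77, adjusted p = 0.422 by edgeR). It stands out because Fgf10 was lower in Scx+ wells in 3 of 3 T6 plates and higher in 3 of 3 T9 plates. The comparison was chosen after seeing the data, did not pass the threshold, and was 2.67 without the T6 well that held 30 Fgf10 UMIs.

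The difference of Spry2 changed from T6 to T9 by -0.63 (SE 0.26, adjusted p = 1.00 by edgeR). Spry2 stood at 46.5, 38.6 and 52.4 CPM in Scx- wells and at 64.4, 50.1 and 53.7 CPM in Scx+ wells of the T6 plates, and at 73.5, 73.2 and 106 CPM against 51.1, 67.6 and 80.0 CPM at T9. It was thus higher in Scx+ wells in 3 of 3 T6 plates and lower in 3 of 3 T9 plates, and the change did not pass the threshold.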

How the results depend on the processing

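Without the filter on low counts the number of FGF genes called was 2 from T3 to T6, 2 and 3 between the Scx classes at T3 and T6, and 4 in Scx_homoKO. With DESeq2 it was 1 from T6 to T9 and 0 between the Scx classes at T6. With the split by reads on no feature as a covariate it was 2 from T3 to T6 and 1 from T6 to T9. From T3 to T6 it was 0 with median-ratio size factors, with only the plates compared, with wells thinned to 3000 UMIs, without wells of other cell types and on library size alone. Thinning gave 2, 0 and 1 genes between the Scx classes at T3, T6 and T9, and a class minimum of 2 UMIs gave 2 at T6 and 1 at T9. Without wells of other cell types it was 1 from T6 to T9, on library size alone it was 1 in Scx_homoKO, and without the well with the most Fgf10 UMIs it was 0 between the Scx classes at T6. The last 2 settings were chosen after seeing the data. With each library left out in turn, the number lay between 0 and 1 from T3 to T6 and for the Scx classes at T3 and T6, and between 0 and 3 in Scx_homoKO. It was 0 from T3 to T6 without T3 replicate 2 or 3 or T6 replicate 2 or 3, 0 between the Scx classes without T3 replicate 3 or T6 replicate 1 or 3, and in Scx_homoKO 0 without Scx_Wt replicate 1 and 1 without Scx_homoKO replicate 1. The number was 5 to 7 from T0 to T3 and 5 to 8 from T0 to T9 over all alternatives.

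With the replicate number as a replicate block it was 0 from T3 to T6, 6 from T0 to T3, 7 from T0 to T9 and 3 in Scx_homoKO, where Spry2 was added (-0.77, adjusted p = 0.0260 by edgeR). Without the plate as a block, 0 genes were called between the Scx classes at T3 and at T6. No other count of calls was changed by a block.

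The direction turned for differences that had not passed the test. For Etv5 from T3 to T6 it was 0.15 with the covariate and 0.55 without wells of other cell types, and from T6 to T9 -0.20 after thinning and -0.052 without those wells. For Fgf10 from T0 to T3 it was -0.019 without the filter, -0.043 with the replicate block, -0.12 with the covariate and -0.15 on library size, and from T6 to T9 -0.064 and -0.20 in the last 2. For Fgfr1 from T3 to T6 it was -0.13 with the covariate, -0.0040 with only the plates compared, -0.060 after thinning, -0.011 without wells of other cell types and -0.0094 on library size, and at T9 against T0 it was -0.20 on library size. Spry2 from T0 to T3 stood at 0.00043 without wells of other cell types. With each library left out, the ranges that crossed 0 were -2.02 to 0.036 (Etv4) and -0.58 to 0.17 (Fgf18) and -0.30 to 0.27 (Fgf10) from T6 to T9, -0.64 to 0.37 (Etv5), -0.61 to 0.11 (Fgf18) and -0.16 to 0.21 (Fgfr1) from T3 to T6, -0.26 to 0.24 (Fgf10) and -0.31 to 0.094 (Spry2) from T0 to T3, -0.036 to 0.39 (Fgfr1) at T9 against T0, -0.17 to 0.92 (Fgf10) between the Scx classes at T3, and -0.31 to 0.043 (Fgfr1) and -0.052 to 0.38 (Fgfr3) in Scx_homoKO. The cause of these changes was not tested. Depth limits Fgf7 and Fgfr3 most, with at most 19 and 37 UMIs per time point in the plates, and the number of tendons, 2 per genotype, limits the bulk comparison.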

Other observations

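Between Scx+ and Scx- wells, edgeR called 2 of the 69 other pathway genes tested at T3, 2 at T6 and 0 at T9, where 0.801%, 0.523% and 0.413% of all genes were called. At T9, 9 of the 69 had an unadjusted p below 0.05, and DESeq2 called 1 at T3 and 0 at both T6 and T9. The called genes are named here after their values were seen. At T3 the immediate early genes Egr1 (0.38, SE 0.08, adjusted p = 0.0298) and Junb (0.68, SE 0.15, adjusted p = 0.0330) were higher in Scx+ wells. At T6 Dusp6, the ERK phosphatase, was higher in them (1.46, SE 0.30, adjusted p = 0.0246), and Hs3st1, a sulphotransferase of heparan sulphate, was lower (-3.76, SE 0.57, adjusted p = 0.00154). At T0, where 0.565% of all genes were called, edgeR called 2 of 66 pathway genes and DESeq2 called 0, and Dusp6 (0.44, SE 0.09, adjusted p = 0.0357) and Flrt3 (0.47, SE 0.09, adjusted p = 0.0159) were higher in Sox9+ wells. The wells with a Scx or Sox9 UMI were deeper on the median than the wells without, in every plate, and the part of depth was not tested.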
